A study of Mus musculus with 5 samples.

Results

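Glutamate and GABA receptor genes were examined in mouse cells at both ends of a conversion from fibroblast to neural progenitor. The members were all genes whose symbol in the array files names a subunit of an AMPA, kainate, NMDA or delta glutamate receptor, a metabotropic glutamate receptor, or a GABA-A or GABA-B receptor. This gave 47 of the 21983 genes named on the array, 26 for glutamate and 21 for GABA, read by 72 probes. The samples were 3 arrays of chemically induced neural progenitor cells (ciNPC), 2 at passage 13 (p13) and 1 at passage 5 (p5), 1 array of brain-derived neural progenitor cells (NPC, the control progenitors) and 1 array of mouse embryonic fibroblasts (MEF). The series title ties the ciNPC to chemical cocktails and hypoxia, and the labels used here name no strain, age, transgene or clone for any group. The series asks how close the ciNPC are to brain-derived progenitors and how far they are from fibroblasts.

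Glutamate and GABA are the main excitatory and inhibitory transmitters of the brain. AMPA, kainate and NMDA receptors and GABA-A receptors are ion channels built from several subunits, so a cell needs a fitting set of subunit genes, whereas metabotropic glutamate receptors and GABA-B receptors act through G proteins. Neural progenitors and glia respond to both transmitters before synapses form, and GABA is commonly depolarising in immature neural cells. Fibroblasts are not a usual site of these receptors.

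Levels are log2 signal relative to the 75th percentile of the array, so 0 is a bright probe and each unit is 1 doubling. Levels are compared only for the same probe. A signal that the scanner software did not mark as well above background is called under background, and a fold against such a signal is a lower bound. Signals under background also enter the ciNPC mean for Grik3, Grin2c, Grm3 and Slc1a2, so their bounds for ciNPC against MEF are not strict. A gene was tested when its probe was above background throughout 1 or more of the 4 groups (p13, p5, NPC, MEF), which held for 32 members and not for the other 15. To pass, a gene needed a limma adjusted p under 0.05 together with a change of 2-fold or more. The 3 ciNPC arrays shared 1 slide and scan, and NPC and MEF shared another, so for ciNPC against either of these the cell type and the slide cannot be told apart. Precision is limited by the number of arrays throughout.

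The labelled cell types were checked against their markers. All 6 progenitor markers were above background on every ciNPC array and on NPC, against 2 of 6 on MEF, where Sox2, Sox3, Pax6 and Olig2 were under background, and all 6 were higher in ciNPC than in MEF. Of 7 fibroblast markers, 7 were above background on every ciNPC array, 4 on NPC and 7 on MEF. Their summed log2 level was 7.36 to 7.82 on the ciNPC arrays, 1.25 on NPC and 10.65 on MEF, and all 7 were higher in ciNPC than in NPC. Of 8 neuron markers, 8 were above background on each ciNPC array, 7 on NPC and 6 on MEF, at summed levels of 4.55 to 4.70, 5.02 and 5.67. The MEF sum was mostly Snap25, at 5.39 on MEF. Gene by gene, 4 of the 8 were higher and 2 lower in ciNPC than in MEF. Of 5 astrocyte markers, 3 to 5 were above background on the ciNPC arrays, 5 on NPC and 4 on MEF, at summed levels of 2.58 to 2.92, 2.97 and 0.52. In ciNPC and NPC these sums were mostly Aldh1l1, at 2.38 to 2.73 and 2.81, beside -0.95 on MEF. Of the 5, 2 were higher and 0 lower in ciNPC than in MEF, and Gfap, Aqp4 and S100b did not pass. Stmn2 was under background on NPC, and Nefl and Rbfox3 on MEF. All 3 oligodendrocyte precursor markers were above background on every array, 3 oligodendrocyte markers on ciNPC and MEF and 2 on NPC, and of 4 macrophage markers 2 to 3 on ciNPC, 2 on NPC and 3 on MEF. The part of such cells in the receptor values was not tested. In bulk RNA, fewer cells of a type and less RNA per cell cannot be told apart. The share of spots above background was 47.9% to 54.1% on the ciNPC arrays, 55.2% on NPC and 57.6% on MEF, and the spike-in slope of ciNPC p13 replicate 2, at 0.803, lay outside the range the software accepts.

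By the probe used for each gene, 20, 25 and 23 members were above background on p13 replicates 1 and 2 and on p5, 26 on NPC and 20 on MEF. These were 42.6% to 55.3% of the members on an array, while 61.1% to 68.1% of all named genes were above background. Members on all 5 arrays numbered 10 of 47 (21.3%), while 54.7% of all named genes were. Members on the 3 ciNPC arrays and NPC but not on MEF numbered 6 (12.8%), while 1.67% of all named genes had that pattern. Gria2, Gria4, Grm5, Gabra3 and Gabrg1 were among them. On MEF alone there were 3 members (6.38%), Gabrb1, Grik1 and Grin3b, beside 3.6% of all named genes. A further 11 members (23.4%) were under background on all 5 arrays, a share near the 22.8% of all named genes.

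Against MEF, 13 of the 32 tested members were higher in ciNPC and 1 was lower. Of all genes tested, 15.3% were higher and 15.3% lower. The 13 included Gria2, Gria3, Gria4, Grik3, Grin2c, Grin3a, Grm3 and Grm5 for glutamate and Gabra2, Gabra3 and Gabrg1 for GABA, and the lower one was Gabrb1. The other 18 tested members differed from MEF by between -1.94 and 2.31 log2 units and did not pass. The median difference of the 32 tested members was 0.69, beside -0.09 for all genes. Members that were dim on the MEF array entered the test through their level in ciNPC or NPC. Gabrb1, Grik1 and Grin3b, above background on MEF alone, entered through their level on that 1 array, which also serves as the comparison.

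The folds and bounds below are those of the processed signal. The normexp alternative corrected the raw signal for background and added an offset of 50 to it. With it, 11 members were higher and 1 lower, and the log2 differences from MEF were smaller. They were 5.93 for Grm5, 4.29 for Gabrg1, 3.48 for Gria4 and 2.53 for Gria2. For Gabra2 the difference was 2.39, for Grin3a 1.46, for Grm3 1.30 and for Gabra3 1.1. All of these still passed. For Grm5, Gabrg1, Gria4, Gria2, Grm3 and Gabra3 the normexp values lie under the bounds given below. The same holds for Grin2c (1.04, which did not pass) and, in absolute size, for Gabrb1 (-1.70). An added offset by itself shrinks a difference from a dim signal, and its part was not separated from that of the correction. The size of a difference from a dim MEF signal thus depended on these settings.

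**Figure D1:**
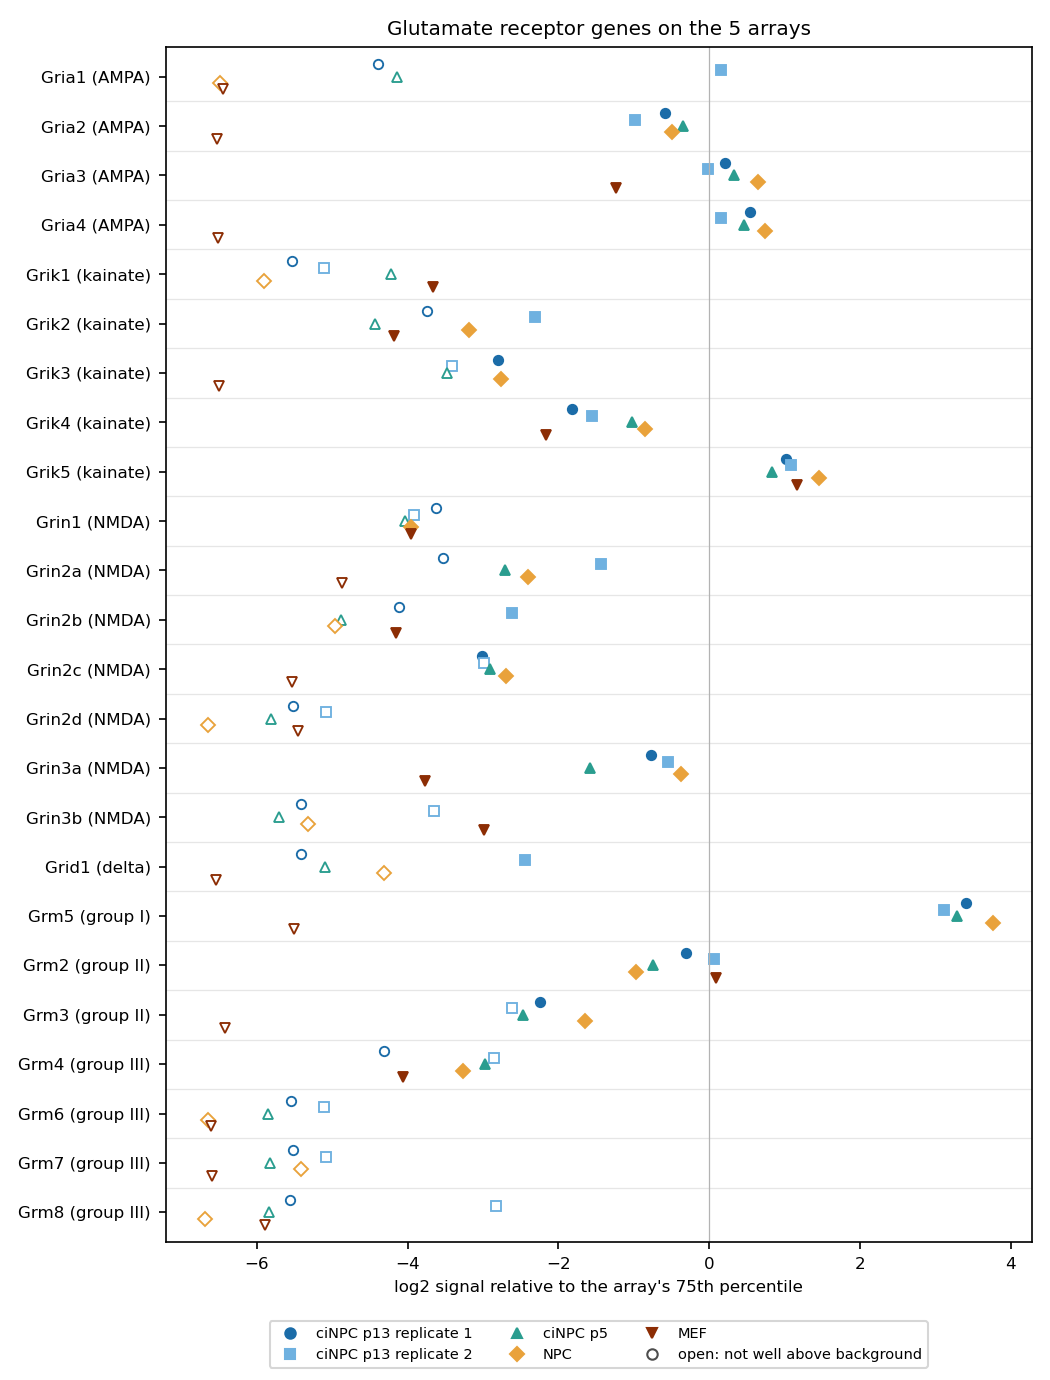
Log2 level of 24 glutamate receptor genes (rows) on the 5 arrays, by the probe used for the gene, filled where well above background and open where under it; levels of different genes are not comparable. Gria2, Gria4, Grm3 and Grm5 stood several units above MEF in ciNPC and NPC, and Gria1 was above background on ciNPC p13 replicate 2 only.

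AMPA receptors carry most fast excitatory current, and each is a tetramer of subunits encoded by Gria1 to Gria4. Gria4 had levels of 0.54 and 0.16 on the p13 arrays, 0.46 on p5, 0.74 on NPC and -6.51, under background, on MEF. All ciNPC arrays and NPC lay far above MEF. Gria4 was at least 25.6-fold higher in ciNPC than in MEF (log2 difference 6.89, SE 0.27, limma adjusted p 1.17e-05). Gria2 encodes the subunit whose edited form keeps AMPA channels nearly closed to calcium. It had levels of -0.59 and -0.98 on the p13 arrays, -0.35 on p5, -0.50 on NPC and -6.53, under background, on MEF. The ciNPC arrays bracketed NPC and did not overlap MEF, and Gria2 was at least 12.6-fold higher in ciNPC than in MEF (5.90, SE 0.37, limma adjusted p 6.19e-05).

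Gria3 was the one AMPA gene measured above background in MEF. Its levels were 0.21 and -0.02 on the p13 arrays, 0.33 on p5, 0.65 on NPC and -1.24 on MEF, a 2.66-fold higher level in ciNPC than in MEF (1.41, SE 0.22, limma adjusted p 0.00234). Its other probe gave -0.96, -0.81, -0.93, -0.15 and -1.22 on the same arrays, a difference of only 0.32 from MEF, and the mean of both probes (0.87, adjusted p 0.0159) was under 2-fold. Gria1 was not tested, since p13 replicate 2 (0.16) was the only array with the gene above background and p13 replicate 1 was at -4.39.

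The 250 bases before the start of Gria2 (chr3:80802836-80803085, minus strand) and of Gria4 (chr9:4796235-4796484, minus strand), from RefSeq on GRCm38.p6, are shown because both genes were under background in MEF and well measured in both progenitor groups. Capitals mark GGGCGG or ACAAT on either strand, and neither window holds any.
Gria2: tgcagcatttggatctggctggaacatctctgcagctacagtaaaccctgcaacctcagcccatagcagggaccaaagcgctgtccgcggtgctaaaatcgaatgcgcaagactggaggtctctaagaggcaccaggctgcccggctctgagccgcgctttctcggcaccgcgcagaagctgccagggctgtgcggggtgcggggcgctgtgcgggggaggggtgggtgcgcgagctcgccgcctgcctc
Gria4: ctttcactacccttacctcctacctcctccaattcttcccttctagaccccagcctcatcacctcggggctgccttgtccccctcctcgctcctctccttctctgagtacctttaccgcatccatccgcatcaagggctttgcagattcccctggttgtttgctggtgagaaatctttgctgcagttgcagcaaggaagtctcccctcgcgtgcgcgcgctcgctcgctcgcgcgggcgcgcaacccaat
Their GC content was 64.8% and 58.8%, with 19 and 16 CpG steps, while the median over 32851 promoter windows was 52.4% with 6.

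Kainate receptors, built from Grik1 to Grik5, gave 1 call. Grik3 had levels of -2.80 and -3.41 on the p13 arrays, -3.48 on p5, -2.76 on NPC and -6.50 on MEF, and was above background on p13 replicate 1 and NPC only. The bound against MEF came to 2.09-fold, but its ciNPC mean includes p13 replicate 2 and p5, which were under background. It is thus not a strict lower bound. Grik3 passed as higher in ciNPC than in MEF (3.27, SE 0.71, limma adjusted p 0.00904). Without p13 replicate 1 it no longer passed (3.06, adjusted p 0.0724). Its other probe was under background on all 5 arrays, so its value of 1.06 against MEF is no measured difference. Grik4 and Grik5, the subunits that need a partner from the other kainate genes to form channels, were above background on all 5 arrays and differed from MEF by 0.70 (SE 0.38) and -0.20 (SE 0.17), which did not pass. Grik1 (-1.28, SE 1.15) and Grik2 (0.69, SE 0.92) did not pass either.

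NMDA receptors combine the obligatory subunit of Grin1 with subunits of the Grin2 and Grin3 genes. Grin1 was close to its background on every array, with -3.62 and -3.91 on the p13 arrays and -4.04 on p5, all under background, and -3.96 on both NPC and MEF, above it. The groups overlapped, and the difference from MEF was 0.11 (SE 0.71). Grin3a, which encodes a glycine-binding subunit, was above background on all 5 arrays. It had levels of -0.77 and -0.54 on the p13 arrays, -1.58 on p5, -0.37 on NPC and -3.77 on MEF. It was 7.0-fold higher in ciNPC than in MEF (2.81, SE 0.44, limma adjusted p 0.00236). The MEF level lay near the lowest signal above background on that array (-4.29), and with normexp the difference was 1.46.

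Of the Grin2 genes, 1 passed. Grin2c had levels of -3.01 and -2.99 on the p13 arrays, -2.91 on p5, -2.69 on NPC and -5.54 on MEF, and was under background on p13 replicate 2 and MEF. It was higher in ciNPC than in MEF (2.57, SE 0.58, limma adjusted p 0.0105), with a bound of 2.50-fold that is not strict. Grin2c did not pass without p13 replicate 1 (2.59, adjusted p 0.0522). Grin2a, at -3.53 and -1.44 on the p13 arrays, -2.71 on p5, -2.40 on NPC and -4.87 on MEF, missed the threshold (2.31, SE 0.83, adjusted p 0.0582). It passed with any 1 ciNPC array left out, at 1.75 to 2.79, and with the mean of its probes (2.61). Throughout, fits with an array left out take the spread from fewer ciNPC arrays, and their adjusted p can be over-confident. For Grm5, limma gave 9.33e-58 against MEF without p13 replicate 1, beside 9.76e-07 in the main fit. A pass in such a fit alone is therefore weak support. Grin2b (0.28, SE 1.07) and Grin3b (-1.94, SE 1.19) did not pass. Grin3b passed as lower without p13 replicate 2 (-2.58, adjusted p 0.0198), and also under quantile normalisation and with the deposited value table (-2.57, adjusted p 0.0258 in both). Grin2d and the delta receptor gene Grid1 were not tested.

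Metabotropic glutamate receptors fall into group I, which couples to phospholipase C, and groups II and III, which lower cyclic AMP. The group I gene Grm5 had the highest lower bound on its fold against MEF among the members that passed. Its levels were 3.41 and 3.11 on the p13 arrays, 3.29 on p5, 3.76 on NPC and -5.51, under background, on MEF. The 3 ciNPC arrays had an SD of 0.15 and lay under NPC. Grm5 was at least 189-fold higher in ciNPC than in MEF (8.78, SE 0.17, limma adjusted p 9.76e-07).

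Of the group II genes, Grm3, a receptor well known from astrocytes, was at -2.25 and -2.62 on the p13 arrays, -2.47 on p5, -1.65 on NPC and -6.42 on MEF. It was under background on MEF and on p13 replicate 2. Grm3 was higher in ciNPC than in MEF (3.98, SE 0.52, limma adjusted p 0.00102), with a bound of 3.60-fold that is not strict. Grm2 was at -0.31 and 0.06 on the p13 arrays, -0.75 on p5, -0.97 on NPC and 0.09 on MEF, with overlapping groups and a difference from MEF of -0.42 (SE 0.33). In group III, Grm4 did not pass (0.69, SE 0.79) and Grm6, Grm7 and Grm8 were under background on all 5 arrays.

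Grm5 has 3 probes, and 1 of them did not follow the others. The probe used for the gene lies at chr7:95282581-95282640 (mm9, plus strand), the second 3246 bases before it at chr7:95279335-95279394, and the third 546576 bases further upstream at chr7:94732759-94732818. The first 30 of the 60 bases of each are shown, since these sequences define what was measured. No capitals are used, and the array files do not say in which exon a probe lies.
Grm5 probe A_55_P2033425: attgtataatggctctgctgcagtctgtga
Grm5 probe A_55_P2112464: actctcatcatcagagattacacgcagagt
Grm5 probe A_55_P2316783: tgttcactcactgatccaaggctagccagc
The second probe gave 0.32 and 0.20 on the p13 arrays, -0.13 on p5, 0.67 on NPC and -6.60 on MEF, a difference of 6.73 from MEF. The third gave -0.90, -0.76, -1.32, -0.83 and -0.79 on the same arrays and was above background on all of them, a difference of -0.21. The difference of Grm5 from MEF was seen with the downstream probes only.

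**Figure D2:**
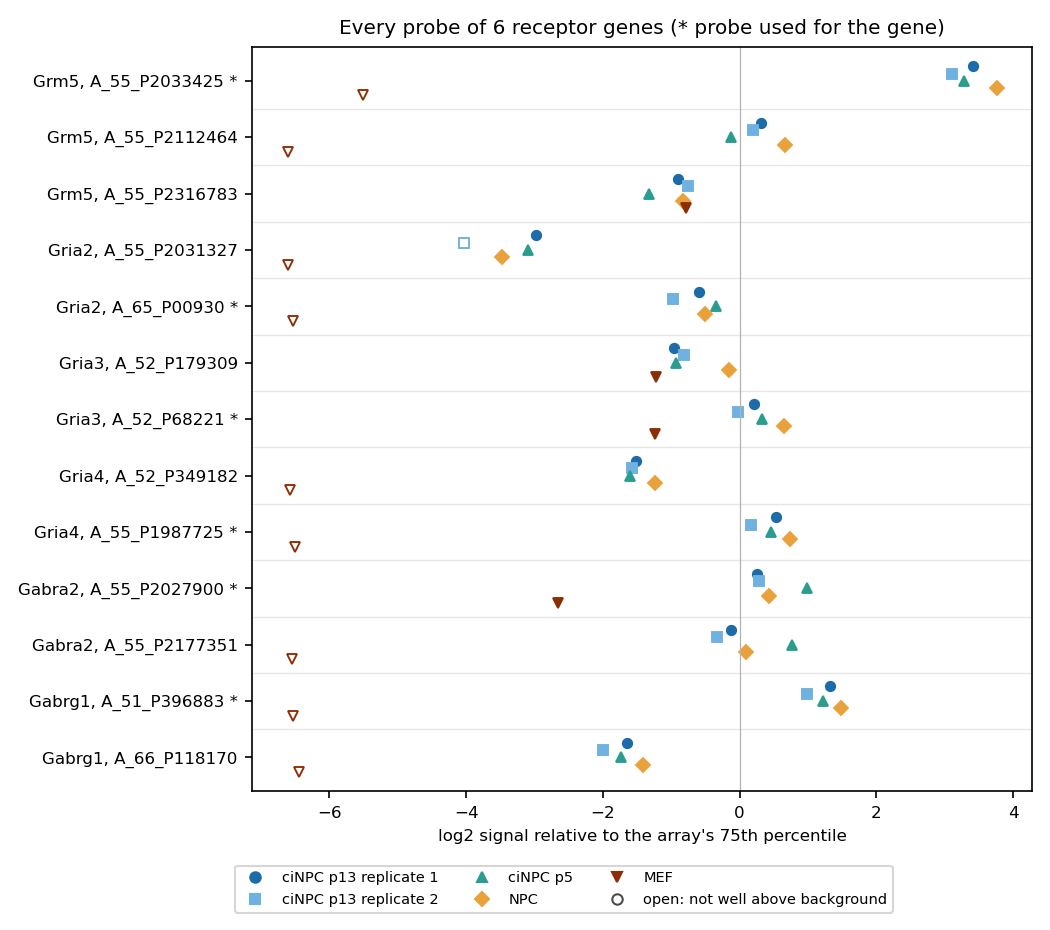
Log2 level of every probe of 6 receptor genes on the 5 arrays (rows are probes, the starred probe stands for the gene, open symbols are under background). The pairs for Gria2, Gria4 and Gabrg1 agreed in direction, while the third Grm5 probe was alike on all arrays.

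GABA-A receptors are pentameric chloride channels, and most contain alpha, beta and gamma subunits. Many subunit genes lie in clusters, and in mouse the order is Gabrg1, Gabra2, Gabra4 and Gabrb1 on chromosome 5, and Gabre, Gabra3 and Gabrq on the X chromosome. Members of 1 cluster did not share 1 pattern in these cells. Both clusters held a member that was higher in ciNPC than in MEF and at least 1 that was under background on the 3 ciNPC arrays.

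**Figure D3:**
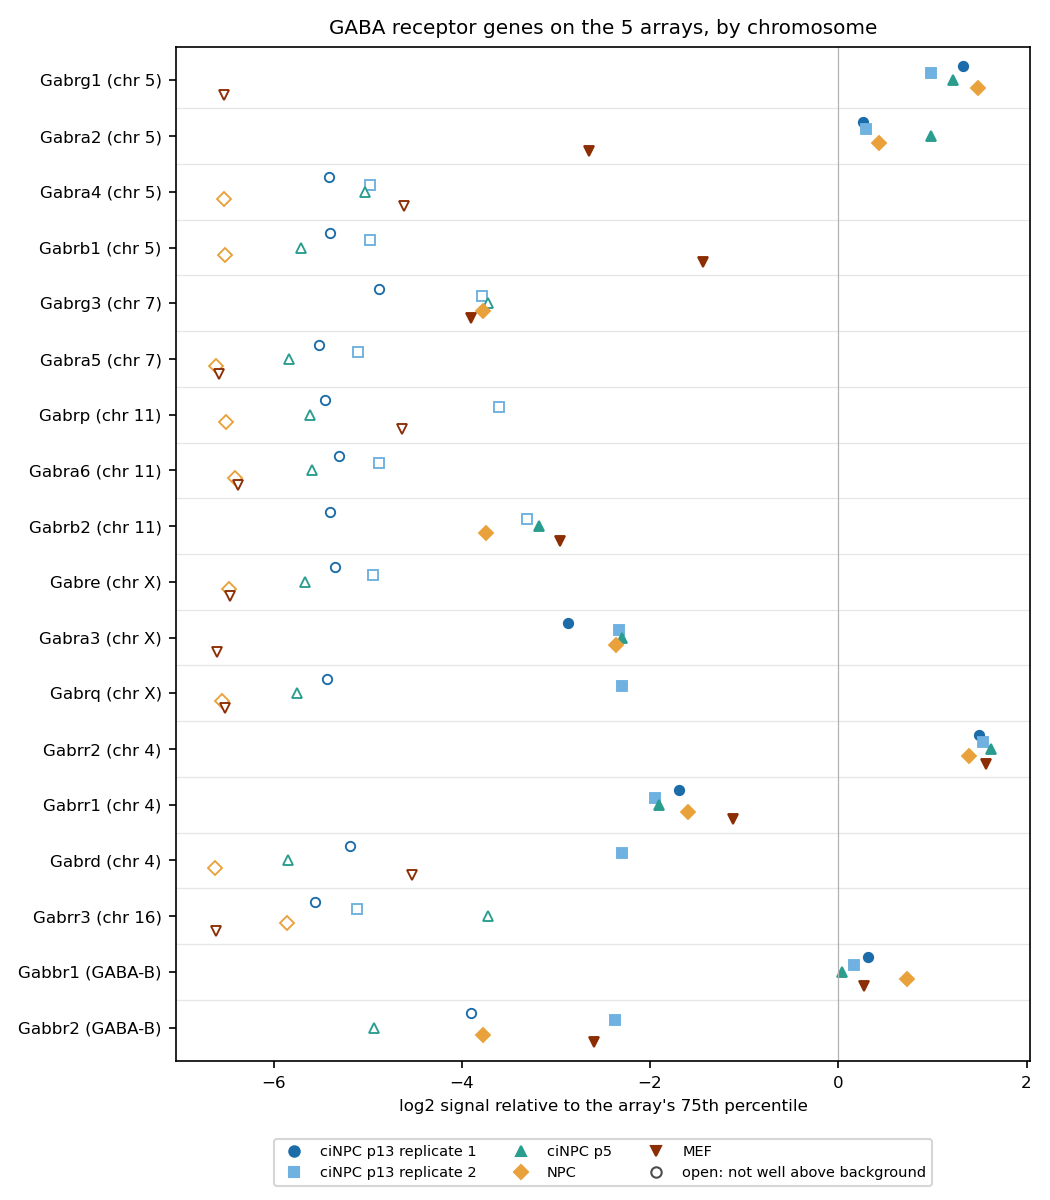
Log2 level of 18 GABA receptor genes (rows, in chromosome order) on the 5 arrays, filled where well above background and open where under it; levels of different genes are not comparable. Gabrg1 and Gabra2 stood above MEF in ciNPC and NPC while Gabrb1, at the other end of the chromosome 5 cluster, was above background in MEF only.

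On chromosome 5, Gabrg1 had levels of 1.32 and 0.99 on the p13 arrays, 1.22 on p5, 1.48 on NPC and -6.53, under background, on MEF. It encodes a gamma subunit of restricted use, and was at least 44.3-fold higher in ciNPC than in MEF (7.70, SE 0.23, limma adjusted p 4.96e-06). The next gene, Gabra2, encodes an alpha subunit abundant in the developing brain. Its levels were 0.26 and 0.29 on the p13 arrays, 0.98 on p5, 0.43 on NPC and -2.65 on MEF, where it was above background, and it was 8.94-fold higher in ciNPC than in MEF (3.16, SE 0.33, limma adjusted p 0.000408). A second probe overlapping the first gave like levels in the progenitors (-0.13, -0.33, 0.76 and 0.09 on p13 replicates 1 and 2, p5 and NPC) but -6.55, under background, on MEF, so whether MEF express Gabra2 depends on the probe.

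The far end of the same cluster went the other way. Gabrb1, a beta subunit gene, was under background on all ciNPC arrays (-5.40, -4.98 and -5.71 on p13 replicates 1 and 2 and on p5) and on NPC (-6.52), and at -1.44 on MEF, above background. It was at least 3.36-fold lower in ciNPC than in MEF (-3.93, SE 1.06, limma adjusted p 0.0213). Gabrb1 was tested only because of its level on the single MEF array, so this p-value is weak support. Without p13 replicate 1, Gabrb1 did not pass (-3.91, adjusted p 0.0939). Gabra4, between Gabra2 and Gabrb1, was under background on all 5 arrays.

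The windows before Gabrg1 (chr5:70842618-70842867, minus strand) and Gabra2 (chr5:71095850-71096099, minus strand), from RefSeq on GRCm38.p6, are shown because these neighbours were both high in ciNPC and NPC. Capitals mark GGGCGG, the GC box read by Sp1-type factors, and ACAAT, the core letters of SOX motifs, on either strand.
Gabrg1: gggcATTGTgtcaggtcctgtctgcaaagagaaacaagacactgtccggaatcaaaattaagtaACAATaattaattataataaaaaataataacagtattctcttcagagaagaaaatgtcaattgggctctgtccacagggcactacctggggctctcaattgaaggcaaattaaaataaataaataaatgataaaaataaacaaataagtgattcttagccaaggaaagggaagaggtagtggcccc
Gabra2: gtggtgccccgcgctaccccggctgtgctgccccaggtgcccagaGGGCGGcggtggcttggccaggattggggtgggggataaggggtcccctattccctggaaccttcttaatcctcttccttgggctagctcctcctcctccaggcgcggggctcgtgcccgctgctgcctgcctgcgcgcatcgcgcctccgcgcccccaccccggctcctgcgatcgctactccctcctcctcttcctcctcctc
The neighbours had unlike windows. That of Gabrg1 was 35.6% GC with 1 CpG and held ACAAT at 2 places, and that of Gabra2 was 70% GC with 18 CpG and held GGGCGG once. Promoter entries existed for 32 members, in 39 windows. GGGCGG stood in 18 of these (46.2%), beside 32.7% of all 32851 windows, and ACAAT in 5 (12.8%), beside 27.7%. TTCAGCACC, part of the motif of the neuronal silencer REST, stood in the window of Grm2 alone, beside 0.301% of all windows. TATAAA stood in 4 (10.3%), CAGCTG in 1 (2.56%) and TGACGTCA in none, beside 12.4%, 13% and 1.55% of all windows. Each motif was searched on both strands, and a match is a description only.

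On the X chromosome, the alpha subunit gene Gabra3 had levels of -2.87 and -2.33 on the p13 arrays, -2.30 on p5, -2.36 on NPC and -6.60, under background, on MEF. It was at least 3.47-fold higher in ciNPC than in MEF (4.10, SE 0.58, limma adjusted p 0.00151). Its other probe did not follow, at -4.88 and -2.70 on the p13 arrays, -4.21 on p5, -4.76 on NPC and -4.66 on MEF, above background on p13 replicate 2 only, a difference of 0.73 from MEF. The mean of both probes gave 2.42 (limma adjusted p 0.0391). Its cluster neighbours Gabre and Gabrq were not tested.

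Of the other GABA-A genes, Gabrg3 (-0.23, SE 0.84) and Gabrb2 (-1.01, SE 1.03) did not pass against MEF, and Gabra5, Gabra6 and Gabrp were under background on all 5 arrays.

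The rho subunits form GABA channels of their own kind, best known from retina. Gabrr2 was above background everywhere, at 1.49 and 1.54 on the p13 arrays, 1.62 on p5, 1.39 on NPC and 1.57 on MEF, and its difference from MEF was -0.02 (SE 0.15, 95% interval -0.38 to 0.34). Gabrr1 was also above background on all 5 arrays and differed by -0.73 (SE 0.31), which did not pass. Gabrr3 and the delta subunit gene Gabrd were not tested. GABA-B receptors pair the products of Gabbr1 and Gabbr2. Gabbr1 was at 0.32 and 0.17 on the p13 arrays, 0.04 on p5, 0.73 on NPC and 0.27 on MEF, with a difference from MEF of -0.10 (SE 0.20, 95% interval -0.57 to 0.38). Gabbr2, above background on p13 replicate 2, NPC and MEF, differed from MEF by -1.15 (SE 1.02) and did not pass. Without p13 replicate 2 it passed as lower (-1.83, adjusted p 0.0405), with the limit stated for fits with an array left out.

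**Figure D4:**
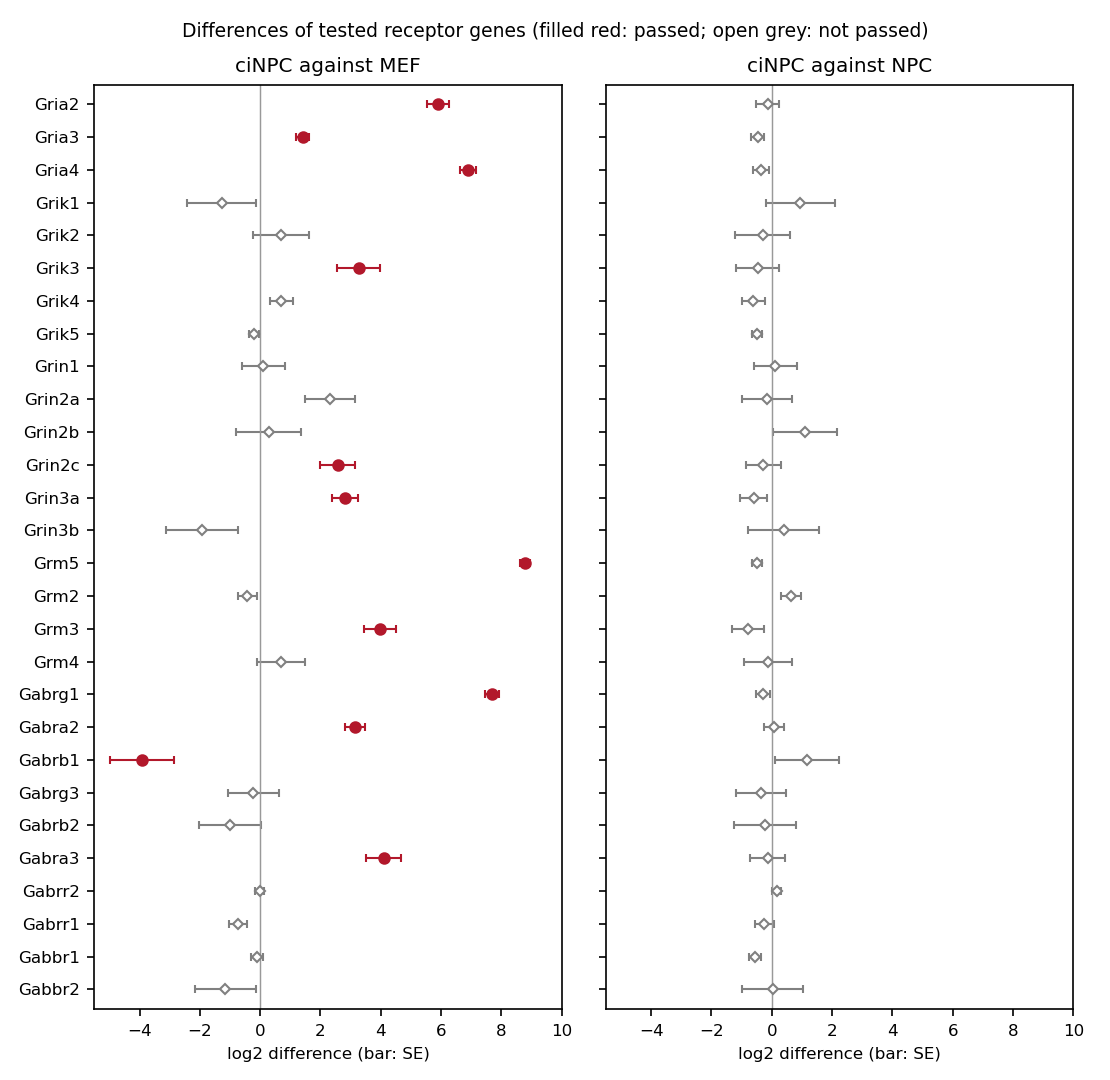
Log2 difference (x axis, bars are SE) of ciNPC from MEF (left) and from NPC (right) for 28 of the receptor genes tested; filled red points passed and open grey points did not. On the left, 11 higher genes and Gabrb1 stand out, and none of the genes drawn on the right passed.

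Against NPC, 1 of the 32 tested members was higher in ciNPC, and no member was lower. Of all genes tested, 4.81% were higher and 0.0864% lower. By limma, 1 member was higher and 3 were lower at an unadjusted p under 0.05. The other 31 tested members differed from NPC by between -0.79 and 1.5, and 28 of them by less than 2-fold. The median of all 32 was -0.20, beside -0.14 over all genes.

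For several members the interval of the difference from NPC was narrow. It ran from -0.90 to -0.09 for Grm5 (difference -0.49), from -0.86 to 0.26 for Gabrg1 (-0.30), from -1.0 to 0.30 for Gria4 (-0.35) and from -1.03 to 0.75 for Gria2 (-0.14), each a 95% interval on the log2 scale. For Gabra2 it was -0.70 to 0.86 (0.08). These intervals hold no more than about 1 doubling either way. They were wider for Grm3, at -2.03 to 0.44 (-0.79), Gabra3, at -1.53 to 1.26 (-0.14), and Grin3a, at -1.66 to 0.46 (-0.60). For these 3 genes the interval includes differences of more than 2-fold. Both comparisons share the ciNPC arrays.

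NPC against MEF lay within 1 slide, with 1 array each and no test. With dim values raised to the lowest signal above background on their array, 8 of the 32 tested members were at least 4-fold higher in NPC and 1 was lower. Of all genes tested, 8.02% were higher and 10.1% lower by that measure. The 8 higher members included Grm5 at least 266-fold, Gabrg1 at least 54.5-fold, Gria4 at least 32.7-fold, Gria2 at least 13.9-fold, Grin3a 10.6-fold, Gabra2 8.45-fold and Grm3 at least 6.25-fold, and Gabrb1 was at least 7.55-fold lower. These values come from 1 slide and use no ciNPC array.

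Between passages, p13 against p5, none of the 32 tested members passed, higher or lower. Of all genes tested, 0.419% were higher and 0.210% lower. At an unadjusted p under 0.05 by limma, 2 members were higher and 2 lower. Gabra2 had an adjusted p of 0.0456 at -0.71 (SE 0.18), under 2-fold. Grm5 (-0.03, interval -0.33 to 0.28) and Gabrg1 (-0.06, interval -0.53 to 0.40), the members with the highest bounds against MEF, did not pass between passages. Separate cultures are not stated for the p13 arrays, so all p-values here reflect the spread between the arrays at hand, and that spread may be technical.

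**Figure D5:**
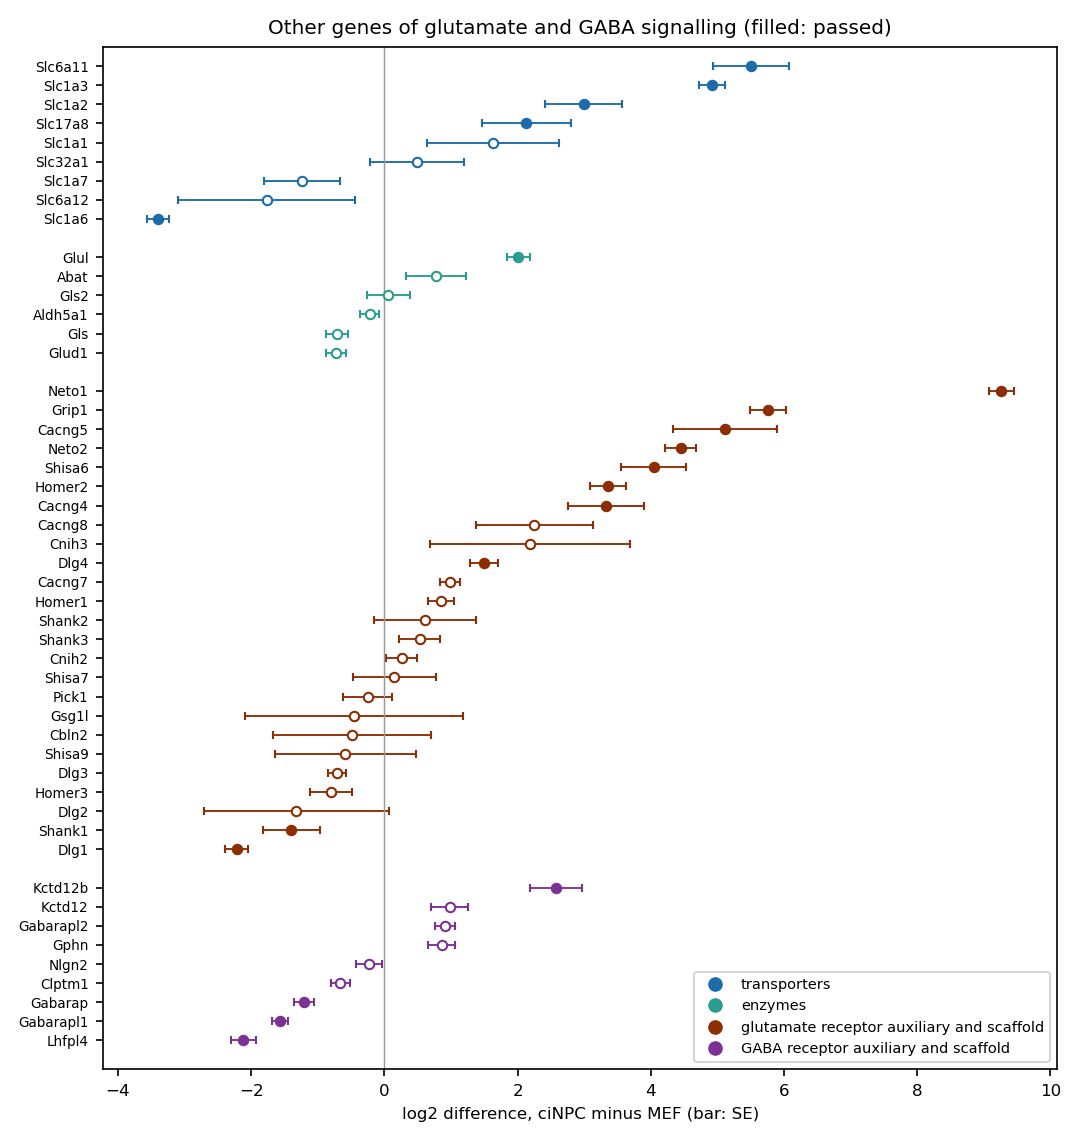
Log2 difference of ciNPC from MEF (x axis, bars are SE) for tested genes of 4 lists that handle glutamate and GABA or assist their receptors; filled points passed. Shisa7, which stands in both auxiliary lists, is drawn once. Neto1 lies furthest to the right and Slc1a6 furthest to the left.

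Genes that move or assist these transmitters were counted from lists. For comparison, 15.3% of all tested genes were higher and 15.3% lower in ciNPC than in MEF. Against NPC the shares were 4.81% and 0.0864%. Whether a list differed from these shares was not tested. Of 13 transporter genes, 10 were tested, and 5 were higher and 1 lower in ciNPC than in MEF. The higher ones included the GABA transporter Slc6a11 (at least 10-fold), the glial glutamate transporters Slc1a3 (30.3-fold) and Slc1a2 (at least 3.60-fold), and the vesicular transporter Slc17a8 (at least 4.37-fold). The glutamate transporter gene Slc1a6 had levels of 2.04 and 1.80 on the p13 arrays, 2.13 on p5, -1.75 on NPC and 5.39 on MEF. It lay between the other cell types, 10.5-fold lower in ciNPC than in MEF (-3.40, SE 0.17, limma adjusted p 3.15e-05) and 13.3-fold higher than in NPC (3.73, SE 0.17, limma adjusted p 3.97e-05). Of 8 enzyme genes, 6 were tested and 1 was higher than in MEF, the glutamine synthetase gene Glul (4.03-fold). Against NPC no enzyme gene passed.

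Of 30 genes for auxiliary and scaffold proteins of glutamate receptors, 25 were tested, and 8 were higher and 2 lower in ciNPC than in MEF. The kainate receptor auxiliary subunit Neto1 had levels of 2.46 and 2.68 on the p13 arrays, 2.81 on p5, 3.39 on NPC and -6.61, under background, on MEF, and was at least 123-fold higher than in MEF (9.26, SE 0.19, limma adjusted p 1.17e-06). The AMPA receptor partners Grip1 (at least 32.2-fold), Cacng5 (at least 7.29-fold), Shisa6 (16.4-fold) and Homer2, a scaffold of group I metabotropic receptors (10.2-fold), were higher as well, as was Neto2 (21.9-fold). The remaining higher genes were Cacng4 and Dlg4, and the lower ones Dlg1 and Shank1. None passed against NPC. Of 13 genes for partners of GABA receptors, 11 were tested, and 2 were higher and 3 lower in ciNPC than in MEF. The GABA-B partner Kctd12b (5.92-fold) was among the higher ones, and Lhfpl4 (4.35-fold), Gabarapl1 (2.97-fold) and Gabarap (2.31-fold) were lower.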

How the data were processed

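RNA of 5 mouse samples was hybridised to single-colour (Cy3) Agilent arrays with 60-base probes. The authors extracted spots with Agilent Feature Extraction 10.7.1.1, per the submitters' processing notes, and the deposited array files give processed signal as an intensity, background-subtracted per the file headers. The deposited value table holds log2 values whose normalisation is not given in the sources used here; all columns had a median of 5.64, and their correlation with the matching array's log2 signal was 0.995 to 0.999.

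Each processed intensity was put on the log2 scale and the array's 75th percentile subtracted. Spots marked as outliers were left out, which touched 1 member probe, and no member probe was saturated. Of 55681 probes, 29676 were named through accession or symbol. All 47 member genes matched the RefSeq gene table (assembly GRCm38.p6, used for names and gene order); mm9 probe positions were taken from the files. The probe with the highest mean stood for a gene, and 16210 genes were tested. The 3-group fit (ciNPC, NPC, MEF) had 2 residual degrees of freedom and the passage fit 1, in limma 3.58.1 (R 4.3.3; lmFit, eBayes with an intensity trend, Benjamini-Hochberg over all genes). The spread of the ciNPC arrays was taken to hold for the lone NPC and MEF arrays too. A bound sets the brighter group's mean against the higher of the dim probe's signal and the lowest signal above background on that array. Tested on simulated data, the passage fit called more unchanged genes than its adjusted p allows. The naming rule took all members, with the value on every array for those that passed or lay 4-fold apart between NPC and MEF, and up to 6 genes per partner list, ranked by difference from MEF. Some genes that the rule takes are not reported here; counts include them. Alternatives covered normalisation, background correction (normexp with an offset of 50), the dim-probe filter, probe choice, the trend and each ciNPC array left out. The members and gene lists were chosen with earlier results of these data known.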

Additional observations from a re-analysis of the deposited data

How the results depend on the processing

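Of the 153 values recomputed for single members that passed, 138 kept direction and side of the threshold, 15 no longer passed and none reversed. These include fits with 1 ciNPC array left out, whose adjusted p can be over-confident. Against MEF, 11 to 14 members were higher under every alternative but one: among genes above background on all 5 arrays, which leaves 10 members, it was 3 higher and 0 lower. The lower count was 2 under quantile normalisation and with the deposited value table, and 0 to 3 with 1 ciNPC array left out. The higher count against NPC was 0 under quantile normalisation, with the deposited value table, with genes above background on all 5 arrays, with the mean of probes and without the intensity trend. Between passages 1 member was lower under normexp; with 1 p13 array left out there was no test, and 1 to 7 members lay at least 2-fold higher and 1 to 5 lower. For NPC against MEF, normexp gave 5 higher and 0 lower, and genes on all 5 arrays 2 and 0. Grik3 lost its call under quantile normalisation (2.25), normexp (1.09), the deposited table (2.24) and the mean of probes (2.17), and Grin2c under the first 3 (2.06, 1.04 and 2.05). The causes were not tested. Over all genes, calls for p13 against p5 were 68 higher and 34 lower, but 2 and 0 under quantile normalisation and with the deposited table, 0 and 0 without the trend, and 138 and 44 with the mean of probes. The 14 genes lower against NPC were 4 to 76 and the 779 higher ones 430 (genes on all 5 arrays) to 1030 (without p13 replicate 2). Scaling on detected probes gave 2801 higher and 2088 lower against MEF, beside 2484 and 2483, and 13 and 1 members. No paired analysis was possible because the labels number replicates in the p13 group only.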

Other observations

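Of the 15 members that were not tested, 4 were above background on ciNPC p13 replicate 2 and on no other array. Gria1 was at 0.16 on that array, against -4.39 on p13 replicate 1, -4.14 on p5, -6.49 on NPC and -6.45 on MEF. Gabrd and Gabrq were both at -2.30 there and Grid1 at -2.45, and on p13 replicate 1 they were at -5.19, -5.43 and -5.42. These 4 are 8.51% of the members, while 618 of the 21983 named genes (2.81%) were above background on that array alone, the one with the low spike-in slope. Probes not used for their gene at Grin1 (-2.54) and Gabra3 (-2.70) were also above background there only. No test was run on these values.

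The 11 members under background on all 5 arrays had higher readings on the ciNPC slide. Their ciNPC level minus MEF had a median of 1.1 (-0.53 to 1.81) and minus NPC a median of 1.16 (-0.05 to 1.94), while NPC minus MEF, within 1 slide, had a median of -0.04. A fitted difference of about this size between dim probes is no measured difference.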
